A study of Homo sapiens with 9 samples.

Results

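The genes described here are 56 developmental transcription factors outside the HOX clusters. They were chosen by symbol from a list of homeobox, T-box, forkhead, SOX, basic helix-loop-helix and related genes that are typical targets of Polycomb repression, and all 56 were found among the 57733 genes of the tables. The rule uses symbols alone and no measured value, though the list was chosen with earlier results of these data known. By family the list holds 5 PAX, 4 sine oculis homeobox (SIX2, SIX3, SIX4, SIX5), 5 TBX, 5 LHX, 4 MEIS and PBX, 6 IRX, 4 paired-like (PITX1, OTX1, OTX2, ALX4), 8 NK-like (DLX, MSX, EN2 and EMX genes), 6 forkhead, 4 SOX and 4 basic helix-loop-helix genes, and WT1.

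These factors set the identity of tissues in the embryo. In cells that do not use them, their CpG-rich promoters are commonly held silent by Polycomb group proteins: PRC2 places methyl groups on lysine 27 of histone H3, and PRC1 binds the mark and compacts the chromatin. KDM6A (UTX) is a demethylase that removes this mark, and it sits in a COMPASS-like complex that acts at enhancers. In the pancreas, SOX4 and PAX6 are known for their part in the development of endocrine cells, while factors such as TBX5 or IRX4 are known from other organs.

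Nascent RNA was measured in PANC-1, an established human pancreatic ductal cancer line. The WT line was a PANC-1 control that had received no guide RNA, and KO C22 and KO C28 were KDM6A knockout lines made with CRISPR/Cas9, each grown from a single clone, so that a property of a clone and an effect of the edit cannot be told apart. In Bru-seq, new RNA was labelled with 2 mM bromouridine for 30 min, captured with an antibody and sequenced at once (chase of 0 h). In BruUV-seq, cells also received UV light at 100 J/m2, which stalls polymerases and so enriches reads near gene starts. Each line had 2 Bru-seq replicates and 1 BruUV-seq sample, so that the 3 lines gave 9 libraries. Nothing in the labels says that replicates came from separate cultures, so p-values speak only for the spread among these libraries.

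Between 14.4 M and 31.1 M reads lay in genes in 8 libraries, and 5.64 M in Bru-seq KO C28 replicate 2. The share of reads that fell outside genes was 46.5% there and 9.93% to 20.01% elsewhere. KDM6A itself was transcribed in all lines: its RPKM (reads per kilobase of gene, scaled to library depth) in the Bru-seq replicates was 1.13 and 0.939 for WT, 0.969 and 1.15 for KO C22, then 1.20 and 0.211 for KO C28. A short lesion at a CRISPR cut need not alter the count of a whole gene, so these values do not check the labels. Of 8 ductal and epithelial markers, KRT7, KRT8, KRT18, KRT19 and MUC1 were above background in all 9 libraries and CFTR in none.

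A background was needed because most of these factors were close to silent. It was taken from 403 olfactory receptor genes, which pancreatic cells are not known to use. Their read density was 0.106 to 0.196 reads per kb in 4 Bru-seq libraries, 0.564 in Bru-seq KO C22 replicate 1 and 0.911 in Bru-seq KO C28 replicate 2, and 0.0663 to 0.0934 in BruUV-seq. A factor is called above background in a library where its RPKM exceeded the 95th percentile of those genes there. That percentile was 0.436 RPKM in Bru-seq KO C28 replicate 2 and 0.121 in Bru-seq KO C22 replicate 1, and no more than 0.0370 in any of the 4 remaining Bru-seq samples. Values without these libraries are given beside the results for many of the factors and lists below.

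Of the 56 factors, 14 were above background in all 9 libraries, 31 in some and 11 in none. The 14 were FOXC1, FOXC2, FOXD1, FOXL2, IRX3, DLX1, DLX2, MSX1, MSX2, PAX2, PITX1, SIX5, SOX4 and TBX3. The 11 were SIM1, IRX1, IRX2, IRX4, IRX6, PAX3, TBX5, OTX2, SOX11, DLX5 and LHX9. By library, 16 factors were above background in Bru-seq KO C28 replicate 2 and 23 in Bru-seq KO C22 replicate 1, against 31 to 41 in the other 7 libraries.

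SOX4, an HMG-box factor of progenitor cells and many carcinomas, had the highest mean RPKM over the 6 Bru-seq libraries, 9.92. It was followed by the forkhead genes FOXD1 (5.22), known from kidney stroma, and FOXC2 (3.97), known from mesoderm and lymphatic vessels. MSX2, a homeobox gene of limb and craniofacial tissue, stood at 2.3 and PITX1, a hindlimb and pituitary factor, at 1.07. PBX3, a TALE-class partner of HOX proteins, stood at 0.966, SIX4, a factor of muscle and sensory organs, at 0.861 and FOXC1, the close paralogue of FOXC2, at 0.842.

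The ranges of neighbours in this order overlapped. SOX4 ran from 5.76 to 17.4 RPKM over the 6 Bru-seq libraries, FOXD1 from 3.23 to 9.48 and FOXC2 from 2.04 to 6.62. PAX2, the kidney and optic stalk factor (0.842), and TBX3, a T-box repressor of limb and mammary development (0.766), closed the first 10. At the other end HAND2, a basic helix-loop-helix factor of heart and limb, had a mean of 0.00181 RPKM and gave 0 to 4 reads in any library.

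**Figure D1:**
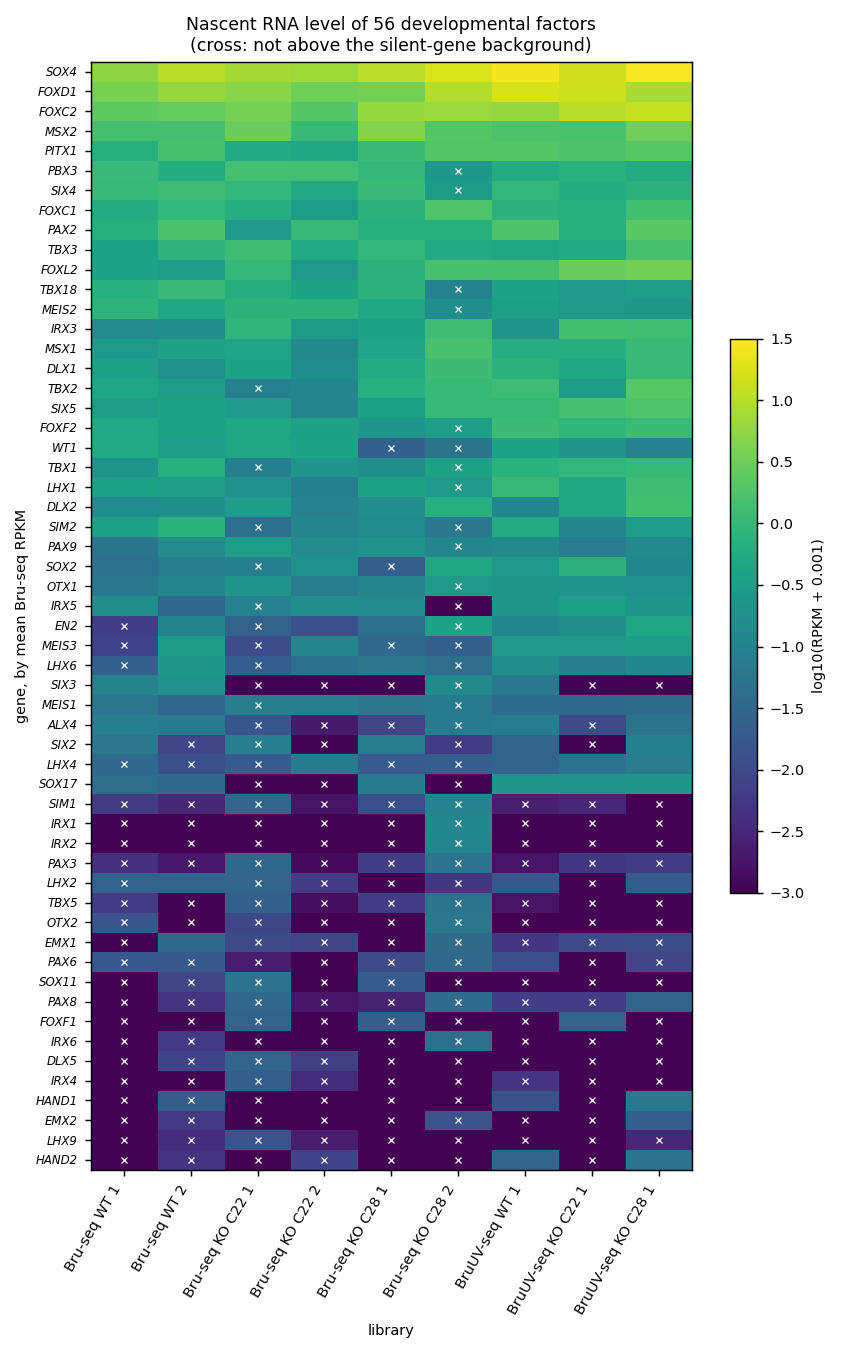
Nascent RNA level of the 56 factors, as log10 of RPKM + 0.001 (colour), in each of the 9 libraries (columns), ordered by mean Bru-seq RPKM (rows). A cross marks a value not above the 95th percentile of 403 olfactory receptor genes in that library; SOX4 is at the top, and the lower rows carry crosses in nearly every column.

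Families differed in how many members were on. Among the forkhead genes 4 of 6 were above background in all 9 libraries, and FOXF2 in 8 and FOXF1 in 1. The NK-like genes MSX1, MSX2, DLX1 and DLX2 were above it throughout, EN2 in 6 libraries, EMX1 and EMX2 in 1 each and DLX5 in none. The IRX genes lie in 2 clusters of 3: in that on chromosome 16 IRX3 was above background in all 9 libraries and IRX5 in 7, and in that on chromosome 5 IRX1, IRX2 and IRX4 were above it in none. MEIS and PBX genes, whose products bind DNA together with HOX proteins, were above background in 5 to 8 libraries each. Among the LIM-homeobox genes LHX1 was above it in 8 libraries, LHX6 in 6, LHX4 in 4, LHX2 in 3 and LHX9 in none.

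Several factors with Bru-seq signal were short of the background mark only in the libraries where that mark was high. PBX3, SIX4, TBX18, MEIS2, FOXF2, LHX1, PAX9 and OTX1 were above it in every library but Bru-seq KO C28 replicate 2. TBX2 was below it in Bru-seq KO C22 replicate 1 alone, and TBX1 and SIM2 in both. WT1 differed from these: it was below the mark in both KO C28 Bru-seq libraries and above it in the other 7.

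Reads in long silent genes were set against the number that the olfactory receptor density predicts for their length. PAX3, a neural crest and muscle factor of 99.1 kb, had Bru-seq reads of 9 and 3 for WT, 70 and 1 for KO C22, then 10 and 53 for KO C28, and BruUV-seq reads of 2, 7 and 10 in the same order of lines. Its highest counts were in the 2 libraries of high background, where the olfactory receptor density predicts 55.9 and 90.3 reads for its length. SIM1, a hypothalamic factor of 79.9 kb, gave 52 and 81 reads in those libraries, against 45 and 72.8 predicted, and 0 to 17 in the other 7. TBX5, the heart and forelimb T-box factor, gave 29 and 31 reads there, against 30.7 and 49.7 predicted, and 0 to 7 elsewhere. The values of PAX3, SIM1 and TBX5 were 0 to 1.32 times the prediction in all 9 libraries.

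**Figure D2:**
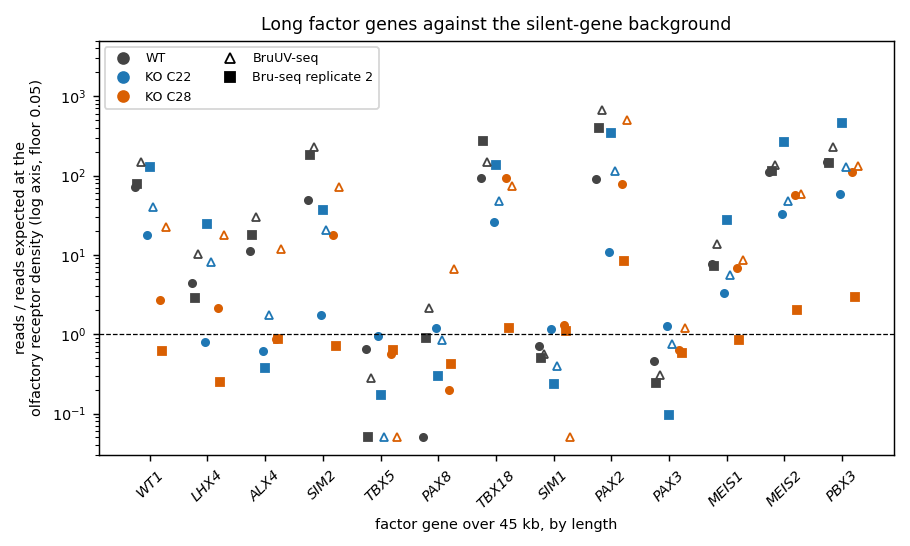
Reads in the 13 factor genes longer than 45 kb, divided by the reads expected at the olfactory receptor density of the same library (log axis, values under 0.05 drawn at 0.05). PAX3, SIM1 and TBX5 stay near or below 1 in all 9 libraries, while PBX3 is at 2.93 and MEIS2 at 2.02 in Bru-seq KO C28 replicate 2 and both are above 30 in the other 8 libraries.

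In the comparison of each knockout clone with WT, no factor passed the test. Each knockout line was grown from a single clone, so the comparison cannot decide whether loss of the demethylase alters transcription. The edgeR quasi-likelihood test with Benjamini-Hochberg adjustment over all genes was fitted to the 6 Bru-seq libraries and to all 9 libraries with the assay as a covariate, and both clones were set against the same WT libraries. In Bru-seq 42 of the 56 factors were tested and 0 passed in either clone, where 0.00438% of 22827 genes passed in KO C22 and 0.00438% in KO C28. At unadjusted p under 0.05 there were 1 and 2 factors (2.38% and 4.76%), beside 2.01% and 6.28% of all genes. With both assays 40 were tested and 0 passed, where 0.178% of 20819 genes passed in KO C22 and 0.125% in KO C28, and 5 and 7 factors had an unadjusted p under 0.05 (12.5% and 17.5%, beside 5.86% and 10.5% of all genes). Directly between the clones 0 passed (0% of all genes), with 5 factors at unadjusted p under 0.05 (12.5%, beside 5.71%). DESeq2 called 2 factors in KO C22 (SIM2 and TBX2, of 1.67% of genes), 3 in KO C28 (WT1, FOXC2 and IRX3, of 3.42%) and 2 between the clones (TBX2 and WT1, of 1.09%), all with both assays. On Bru-seq alone it called 0 in KO C22 (of 0.403% of genes) and WT1 in KO C28 (of 0.872%), and limma-voom called 0 in each comparison. With no filter on low counts edgeR called WT1 in KO C28 Bru-seq (of 0.486% of genes) and 0 factors in KO C22 (of 0.11%). With both assays that setting called SIM2 in KO C22 (of 0.671%), SIM2 and WT1 in KO C28 (of 2.72%), and TBX2 and WT1 between the clones (of 0.568%).

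The 16 factors that did not reach the minimum counts of the fit with both assays were SIX2, SIX3, TBX5, LHX9, OTX2, DLX5, EMX1, EMX2, FOXF1, HAND1, HAND2, IRX1, IRX2, IRX4, IRX6 and SOX11. IRX1 and IRX2, which help pattern neural and heart tissue, gave 0 reads in 8 libraries and 7 reads each in Bru-seq KO C28 replicate 2. Among the others the highest single count was 31 reads, in TBX5.

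Of the 40 tested factors, 19 had a positive log2 fold change in KO C22 and 21 a negative one, with a median of -0.04 beside 0.02 over all genes tested. In KO C28, 26 were positive and 14 negative, with a median of 0.42 beside -0.06 over all genes, of which 47.1% were positive. Without Bru-seq KO C28 replicate 2, 24 of 40 were positive and the median was 0.27. Gene length split the KO C28 values: 18 of 20 tested factors under 10 kb were positive (median 1.04; all genes of that length -0.02), against 4 of 11 from 10 to 50 kb (median -0.57; all genes -0.12) and 4 of 9 above 50 kb (median -0.29; all genes -0.01). Without that library the median of the short factors was 0.39, with 16 of 20 positive. The all-gene values given here are from the fit with all 9 libraries. The counts include only factors that passed the filter and are a description.

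Markers of cell identity stood apart in the same library, and some of them in BruUV-seq KO C28 too. Of 19 tested markers among 30 for ductal, leukocyte, endothelial, fibroblast, neural and pluripotent cells, 17 were positive in KO C28, with a median of 1.66 that became 0.44, with 14 of 19 positive, when Bru-seq KO C28 replicate 2 was left out. The summed RPKM of the 8 ductal and epithelial markers ran from 20.7 to 61.2 in WT libraries, 11.6 to 55.6 in KO C22 and 39.7 to 238 in KO C28. EPCAM and CDH1, epithelial adhesion genes, had log2 fold changes of -2.27 and -3.33 in KO C22 (edgeR adjusted p = 0.224 and 0.259) and were the 2 tested markers below 0 in KO C28, at -1.14 each. KRT18 alone stood at 127 RPKM in Bru-seq KO C28 replicate 2, while the 5 further Bru-seq samples lay between 4.95 and 14.2. In BruUV-seq KRT18 stood at 85.2 RPKM in KO C28, 36.8 in WT and 30.5 in KO C22. KRT19 stood at 49.9, 17.8 and 19.7 there. The summed markers of the other cell types stayed between 0 and 3.32 RPKM in every library, and the defining markers PTPRC, CD3E, VWF, CDH5, COL1A2 and GFAP were above background in none. Other markers on those lists were above it: CD68, of leukocytes and of lysosomes in many cells, in all 9 libraries, and COL1A1 of fibroblasts and SYT1 of neurons in 8 each. The part of the state of Bru-seq KO C28 replicate 2 in the factor values was not tested. Fewer cells using a gene and less RNA per cell cannot be told apart in these bulk samples.

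**Figure D3:**
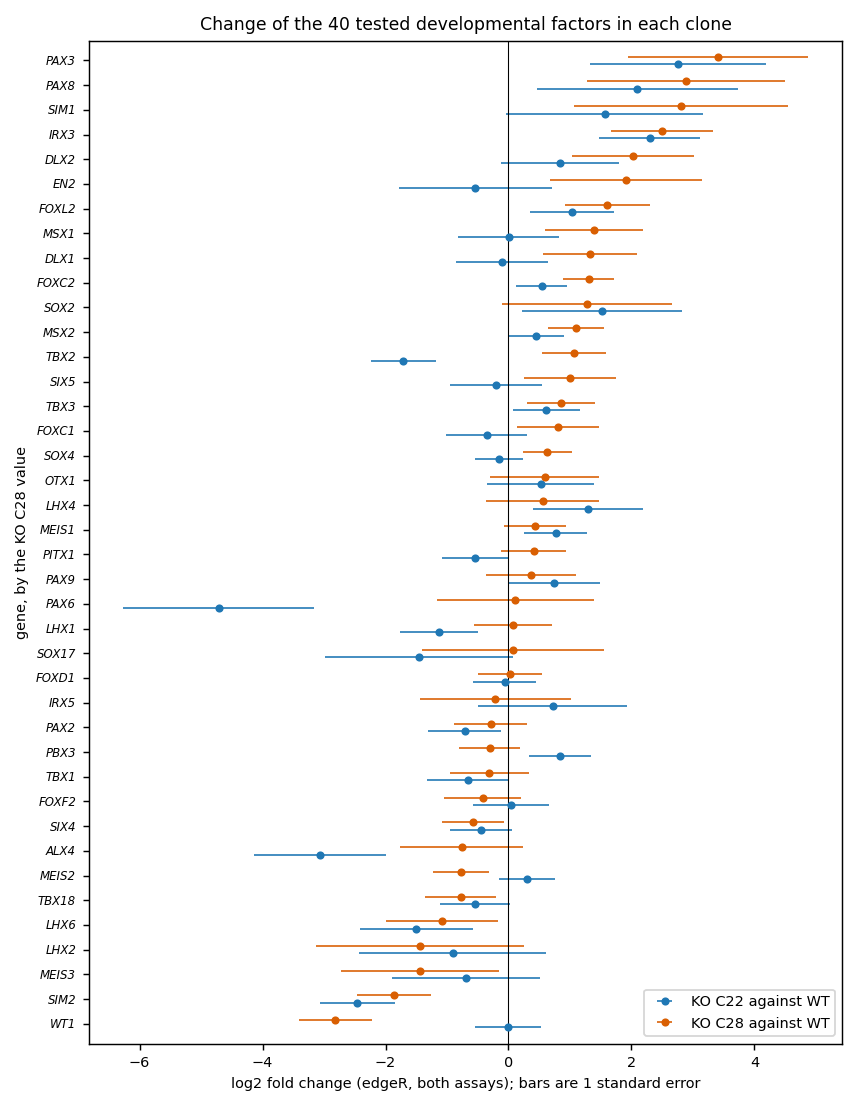
log2 fold change of the 40 tested factors in KO C22 (blue) and KO C28 (orange) against WT, from edgeR on all 9 libraries, with bars of 1 standard error, ordered by the KO C28 value. WT1 (-2.82) is lowest in KO C28, and PAX6 (-4.71) and ALX4 (-3.07) are lowest in KO C22. None passed the adjusted test.

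WT1, a zinc finger factor of kidney, gonad and mesothelium (chromosome 11, 32387775 to 32435630, minus strand), was the lowest in KO C28. Here and for the genes that follow, values run Bru-seq replicate 1, replicate 2 and BruUV-seq. In CPM (read counts scaled to library depth with TMM) it stood at 30.3, 19.5 and 19.9 for WT, at 23.2, 29.6 and 13.4 for KO C22, and at 1.29, 3.95 and 4.84 for KO C28. All 3 KO C28 libraries lay below all 6 others, and the WT and KO C22 Bru-seq values overlapped. With both assays the log2 fold change was -2.82 in KO C28 (SE 0.59, edgeR adjusted p = 0.126, n = 3 libraries per line) and -0.01 in KO C22 (SE 0.54). Directly between the clones it was -2.80 (SE 0.60, edgeR adjusted p = 0.264). It remained at -2.83 without Bru-seq KO C28 replicate 2, where 27 reads lay over the gene against 43.6 predicted from the background. In Bru-seq KO C28 replicate 1 there were 21 reads against 7.70 predicted, and in BruUV-seq 91 against 4.05.

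A second transcript starts at the same place. WT1-AS, a long noncoding RNA on the other strand, begins 112 bases from the start of WT1 and overlaps it by 113 bases. Its reads, with the BruUV-seq value last, were 112, 175 and 77 for WT, 128, 74.5 and 44.2 for KO C22, and 1, 0 and 4 for KO C28. Every KO C28 library was below all the others, in both assays. Its log2 fold change in KO C28 was -5.46 (SE 1.06, edgeR adjusted p = 0.0947), with WT at 44.1 times KO C28 (95% exact binomial interval 18.7 to 136, counting error alone) and at 36.9 times (15.7 to 114) without replicate 2. In KO C22 it was -0.19 (SE 0.81). Of 18 tested genes within 1 Mb of WT1, 13 were negative in KO C28, with a median of -0.36 and a range of -5.46 to 5.20. The 250 bases upstream of the WT1 start in RefSeq (GRCh38.p14, the build of the counted genes) are shown because both transcripts begin in or beside them. They hold 19 CpG dinucleotides, here in capitals. The counted WT1 begins within this stretch, so part of it lies inside the counted gene, and WT1-AS runs across it.

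WT1, chr11:32435540-32435789, minus strand: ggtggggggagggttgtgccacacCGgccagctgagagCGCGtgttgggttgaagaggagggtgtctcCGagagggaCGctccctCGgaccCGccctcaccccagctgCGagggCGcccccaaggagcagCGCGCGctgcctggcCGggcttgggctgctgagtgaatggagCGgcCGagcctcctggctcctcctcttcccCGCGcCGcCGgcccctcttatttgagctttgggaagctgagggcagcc

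SIM2, a basic helix-loop-helix PAS factor of the midline and of some carcinomas (chromosome 21, 36699134 to 36749917, plus strand), had the largest negative value in KO C22 among factors with at least 100 reads on average in WT, after ALX4. WT stood at 21.9 and 48.2 CPM in Bru-seq and 32.5 in BruUV-seq, KO C22 at 2.39, 9.0 and 7.34, and KO C28 at 8.82, 4.82 and 16.4. Within each assay every library of both clones was below WT. The values were -2.46 in KO C22 (SE 0.61, edgeR adjusted p = 0.217) and -1.86 in KO C28 (SE 0.60, edgeR adjusted p = 0.442), with -2.13 in KO C22 without Bru-seq replicate 1 and -1.47 in KO C28 without replicate 2. Genes within 1 Mb had a median of 0.02 in KO C22 and -0.26 in KO C28.

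T-box factors bind DNA through a shared domain and pattern limbs, heart and glands. TBX2, a repressor of cell cycle inhibitors (chromosome 17, 61399896 to 61409425, plus strand), was the one factor below WT in all KO C22 libraries and above it in all KO C28 libraries. It stood at 4.84 and 4.04 CPM in WT Bru-seq and 13.0 in BruUV-seq, at 0.955, 1.78 and 3.52 in KO C22, and at 7.47, 14.9 and 21.1 in KO C28. No value of a line overlapped those of another within an assay. Its log2 fold change was -1.71 in KO C22 (SE 0.53, edgeR adjusted p = 0.458), 1.07 in KO C28 (SE 0.52, edgeR adjusted p = 0.503) and 2.78 between the clones (SE 0.55, edgeR adjusted p = 0.212). Without both libraries of high background these were -1.56, 0.83 and 2.39. The noncoding RNA TBX2-AS1, whose start lies 290 bases away on the other strand, gave 12, 4.39 and 11.3 reads in WT, 0, 4 and 0 in KO C22, then 9.61, 6 and 22.3 in KO C28. These counts are few, and the first 2 of each line, from Bru-seq, overlap between WT and KO C28. Another transcript on that strand, AC005746.2, overlaps TBX2 by 348 bases and stood at 1.27, 1.47 and 2.76 CPM in WT, 1.48, 1.78 and 0.749 in KO C22, then 1.59, 2.78 and 3.03 in KO C28. Its KO C22 Bru-seq values were above those of WT and its BruUV-seq value below (log2 fold change -0.29, SE 0.83). Of 12 tested genes within 1 Mb of TBX2, 11 were negative in KO C22 (median -0.27) and 9 in KO C28 (median -0.21). TBX2-AS1, the lowest of them in KO C22 at -2.43, and AC005746.2 are among the 12. TBX18, a factor of heart and ureter mesenchyme, stood at 64.0, 110 and 32.3 CPM in WT and 53.1, 50.6 and 25.5 in KO C22 (log2 fold change -0.55, SE 0.57, edgeR adjusted p = 0.993).

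Forkhead factors with signal throughout came next. FOXC2 (chromosome 16, 86567251 to 86569728, plus strand) stood at 6.88 and 8.63 CPM in WT Bru-seq and 16.2 in BruUV-seq, at 9.74, 8.09 and 30.3 in KO C22, and at 18.1, 25.3 and 32.5 in KO C28. Both KO C28 Bru-seq libraries lay above all WT and KO C22 ones. In KO C28 the log2 fold change was 1.30 (SE 0.41, edgeR adjusted p = 0.426), and 1.17 without replicate 2. FOXC2-AS1, which overlaps its 5' end by 511 bases on the other strand, had 1.13 (SE 0.74) in KO C28. FOXL2, an ovarian factor, stood at 1.31, 1.18 and 4.80 CPM in WT, 3.15, 1.23 and 10.7 in KO C22, then 2.51, 7.01 and 10.5 in KO C28. Both KO C28 Bru-seq libraries lay above both WT ones, and KO C22 overlapped WT there. Its value was 1.60 in KO C28 (SE 0.69, edgeR adjusted p = 0.478), and 1.12 without replicate 2. FOXC1 (chromosome 6, 1609972 to 1613897, plus strand) stood at 2.71, 4.63 and 3.49 CPM in WT, 2.67, 2.06 and 3.29 in KO C22, then 3.49, 10.8 and 5.58 in KO C28. KO C22 lay just below WT and KO C28 overlapped it, with log2 fold changes of -0.36 (SE 0.66) and 0.80 (SE 0.67), the latter 0.32 without replicate 2. FOXD1 (chromosome 5, 73446256 to 73448527, minus strand) stood at 10.2, 17.4 and 41.1 CPM in WT, 12.6, 11.7 and 39.1 in KO C22, then 9.25, 33.2 and 18.9 in KO C28. Its lines overlapped in Bru-seq, with log2 fold changes of -0.06 (SE 0.51) and 0.03 (SE 0.52) for KO C22 and KO C28, the latter -0.74 without replicate 2.

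**Figure D4:**
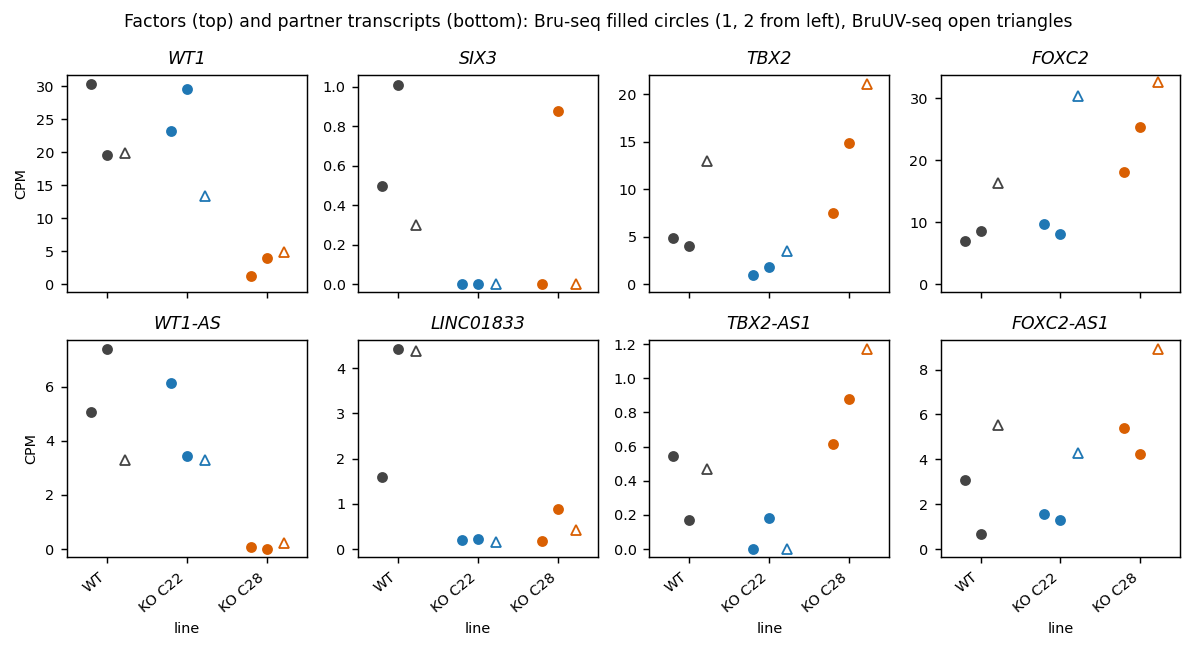
CPM of 4 factors (top) and of a noncoding transcript that starts near each on the other strand (bottom) in WT, KO C22 and KO C28, with Bru-seq replicates as filled circles and BruUV-seq as open triangles. WT1 and WT1-AS are low in KO C28 only, LINC01833 is low in both clones, and TBX2 is low in KO C22 and high in KO C28.

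Homeobox genes of the NK-like class, DLX and MSX, act in limb buds and the face. MSX2 (chromosome 5, 174724533 to 174730893, plus strand) stood at 11.1, 11.9 and 11.9 CPM in WT, 21.2, 11.6 and 12.1 in KO C22, then 33.0, 20.2 and 21.9 in KO C28. The 3 WT values were close together, and each KO C28 library was above them. The log2 fold change in KO C28 was 1.10 (SE 0.46, edgeR adjusted p = 0.470), and 1.33 without replicate 2. DLX1 stood at 1.95, 1.01 and 3.74 CPM in WT and 3.00, 8.18 and 4.89 in KO C28, where every value was above its WT counterpart in the same assay. Its value of 1.33 (SE 0.76, edgeR adjusted p = 0.555) became 0.83 without replicate 2, the library of its highest CPM. SOX4 (chromosome 6, 21592768 to 21598619, plus strand) stood at 39.6, 75.1 and 164 CPM in WT and 75.2, 157 and 169 in KO C28, where the lower KO C28 Bru-seq value and the higher WT one nearly met. Its log2 fold change was 0.63 (SE 0.39, edgeR adjusted p = 0.582), and 0.34 without replicate 2.

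IRX3, an Iroquois factor best known for limb and metabolic roles, was above WT in every library of both clones. It stood at 0.588, 0.758 and 0.808 CPM in WT, 3.39, 1.55 and 5.69 in KO C22, then 1.53, 6.87 and 4.57 in KO C28. The WT libraries held 13, 18 and 19 reads and the clones 25 to 86. The values were 2.29 in KO C22 (SE 0.83, edgeR adjusted p = 0.628) and 2.49 in KO C28 (SE 0.83, edgeR adjusted p = 0.457). Without both libraries of high background they were 1.86 and 1.73. Its neighbour IRX5 had 0.72 (SE 1.21) and -0.22 (SE 1.23), the latter 0.29 without Bru-seq KO C28 replicate 2.

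Sine oculis homeobox factors act with EYA cofactors in eye, muscle and kidney. SIX3, a forebrain and eye factor (chromosome 2, 44941898 to 44946077, plus strand), had 11, 23.9 and 7 reads for WT with BruUV-seq last, 0 in all 3 KO C22 libraries, and 0, 6 and 0 in KO C28. KO C22 had no read, and the 6 reads of KO C28 lay in the library of high background, where 0.136 RPKM was below the mark. Against a floor of 3 counts over the 3 KO C22 libraries, WT was at least 11.3-fold higher, a bound for counting error alone. SIX3-AS1, which begins 25 bases away on the other strand, gave 1 read over all 9 libraries. LINC01833 begins 2699 bases from SIX3 on that strand and gave 35, 105 and 103 reads in WT, 4, 5 and 2 in KO C22, then 3, 6 and 8 in KO C28. Each library of either clone was below each WT library. Its log2 fold change was -4.04 in KO C22 (SE 1.03, edgeR adjusted p = 0.243) and -2.90 in KO C28 (SE 0.98, edgeR adjusted p = 0.457), with WT at 17.9 times KO C22 (95% exact binomial interval 9.82 to 36.3) and 8.65 times KO C28 (5.29 to 15.1). SIX2, the neighbour of SIX3 and a factor of kidney progenitors, gave 0 to 8 reads per library. SIX4 stood at 17.7, 22.9 and 15 CPM in WT and 15, 12.8 and 10.6 in KO C22 (log2 fold change -0.45, SE 0.50, edgeR adjusted p = 0.993).

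Paired-type factors differed in direction in KO C22, none past the test. ALX4, PAX6, PAX2 (-0.71) and PITX1 (-0.55) had negative values. PAX3, PAX8, PAX9 and OTX1 had positive ones (2.75, 2.09, 0.74 and 0.52). Without Bru-seq KO C22 replicate 1, a library of high background, PAX3, PAX8, PAX9 and OTX1 stood at 1.00, -0.24, 0.26 and 0.11. PAX2 and PITX1 stood at -0.36 and -0.38 in that setting. ALX4, a craniofacial factor (chromosome 11, 44260444 to 44310166, minus strand), gave 109, 108 and 99 reads in WT, 17, 2 and 8 in KO C22, then 7, 39 and 50 in KO C28. The KO C22 counts were below all WT counts, and its 17 reads in Bru-seq replicate 1 compare with 28 predicted from the background. Its log2 fold change in KO C22 was -3.07 (SE 1.08, edgeR adjusted p = 0.603), -4.42 without both libraries of high background, and WT was 9.48 times KO C22 (6.39 to 14.6). PAX6, an eye and islet factor, gave 14, 17 and 10 reads in WT, 1, 0 and 0 in KO C22, then 6, 12 and 5 in KO C28. In KO C22 the log2 fold change was -4.71 (SE 1.56, edgeR adjusted p = 0.526), -6.53 without both libraries of high background, and WT was 33.2 times KO C22 (5.63 to 1343). ELP4, on the other strand, overlaps PAX6 by 5.55 kb, where its own density in KO C22 Bru-seq corresponds to 76.2 and 92.4 reads, beside the 1 and 0 reads counted to PAX6 as a whole. PAX3 had 3.41 in KO C28 (SE 1.46, edgeR adjusted p = 0.478), which became 1.94 without replicate 2, on counts at the background described above.

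The MEIS and PBX genes are the longest of the set, from 139 kb to 220 kb apart from MEIS3. PBX3 (chromosome 9, 125747345 to 125967377, plus strand) stood at 286, 166 and 141 CPM in WT, 347, 496 and 198 in KO C22, then 242, 85.8 and 131 in KO C28. KO C22 was above WT in both assays, and KO C28 overlapped WT in Bru-seq. The log2 fold change was 0.83 in KO C22 (SE 0.50, edgeR adjusted p = 0.975). MEIS1 stood at 9.55, 5.26 and 5.40 CPM in WT and 12.4, 18.6 and 5.47 in KO C22, with 0.77 (SE 0.51, edgeR adjusted p = 0.986). MEIS2 stood at 208, 126 and 81.4 CPM in WT and 118, 57.0 and 55.2 in KO C28, below WT in both assays. Its value of -0.77 (SE 0.45, edgeR adjusted p = 0.559) became -0.42 without replicate 2. Genes over 50 kb had a median of 0.30 in KO C22, beside 0.77 for the 9 tested factors of that length.

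LHX1, a LIM-homeobox factor of kidney and head, stood at 3.08, 2.91 and 7.91 CPM in WT, 1.43, 1.01 and 3.74 in KO C22, then 3.12, 2.92 and 9.19 in KO C28. KO C22 lay below the other lines in both assays (log2 fold change -1.14, SE 0.63, edgeR adjusted p = 0.963). PITX1 stood at 5.57, 13.5 and 14.6 CPM in WT and 4.2, 5.53 and 14.3 in KO C22, where the BruUV-seq values differed little (-0.55, SE 0.54, edgeR adjusted p = 0.992).

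Direction was also read by which factors had both Bru-seq libraries of a clone on the same side of both WT libraries, with BruUV-seq on that side too. In KO C22, 3 of 40 were higher by this measure (IRX3, MEIS1 and PBX3), beside 7.98% of all genes. There were 9 lower (ALX4, FOXC1, LHX1, PAX6, PITX1, SIM2, SIX4, TBX18 and TBX2), beside 13.9%. In KO C28, 8 were higher (DLX1, FOXC2, FOXL2, IRX3, MSX2, PAX3, SOX4 and TBX2), beside 12% of all genes. There were 3 lower (MEIS2, SIM2 and WT1), beside 15.7%. IRX3 was higher and SIM2 lower in both clones, which share their WT libraries.

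UV light moves nascent reads toward gene starts, so the ratio of BruUV-seq CPM to mean Bru-seq CPM depends on length. Among 16 factors under 10 kb with at least 20 reads on average the median ratio was 2.38 in WT, 2.26 in KO C22 and 1.27 in KO C28, beside 1.49, 1.77 and 1.17 over all genes of that length. Among 6 factors over 50 kb it was 0.675, 0.481 and 0.714, beside 0.672, 0.536 and 0.699. SIX5, a short homeobox gene of 4.4 kb, had ratios of 2.65, 7.94 and 1.82. PBX3, the longest at 220.0 kb, had 0.621, 0.470 and 0.798. The ratio was above 1 in all 3 lines for 9 of the 16 short factors (56.25%, beside 41.2% of all genes of that length). MSX2, with 1.04, 0.741 and 0.825, was among the other 7. The KO C28 ratios are taken over a Bru-seq mean that includes replicate 2, the library of high background.

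Promoters were examined because CpG density marks the typical targets of Polycomb. RefSeq windows of 250 bases before and 50 after the start (GRCh38.p14) matched 40 of the 56 factors. Of these, 34 (85%) had a CpG observed-to-expected ratio above 0.6 and GC above 50%, against 46.8% of 35116 promoters, 73.0% of 74 promoters of family relatives and 1.54% of 324 olfactory receptor promoters. The median ratio was 0.803 in the 10 matched factors above background in all 9 libraries, 0.805 in 22 above it in some and 0.818 in 8 above it in none. Motifs were counted on both strands. TATAAA was in 1 of 40 windows (2.5%, against 11.5% of all promoters), CCAAT in 25 (62.5% against 34.6%), GGGCGG in 26 (65% against 45%) and CACGTG in 2 (5% against 7.26%). A match is a string of letters and not a bound site.

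Single promoters show the spread of CpG count at high and low levels. SOX4, the factor with the most nascent RNA, has 8 CpG dinucleotides in the 250 bases before its RefSeq start, IRX1, with 0 reads in 8 libraries, has 29, FOXC1, above background throughout, has 37, and PAX3, at background, has 17. The RefSeq start of SOX4 lies 983 bases inside the gene as the files give it, so its stretch is not upstream of the counted gene. RefSeq and file starts differed by over 300 bases in 7 of the 40 matched factors, with a median distance of 43 bases. These 4 are printed 5' to 3', with CpG in capitals.

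SOX4, chr6:21593501-21593750, plus strand: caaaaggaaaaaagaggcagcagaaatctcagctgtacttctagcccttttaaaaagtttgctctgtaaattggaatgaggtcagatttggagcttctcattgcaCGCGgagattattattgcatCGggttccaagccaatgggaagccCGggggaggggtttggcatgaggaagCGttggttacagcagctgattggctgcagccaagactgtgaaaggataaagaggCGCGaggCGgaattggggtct

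FOXC1, chr6:1609665-1609914, plus strand: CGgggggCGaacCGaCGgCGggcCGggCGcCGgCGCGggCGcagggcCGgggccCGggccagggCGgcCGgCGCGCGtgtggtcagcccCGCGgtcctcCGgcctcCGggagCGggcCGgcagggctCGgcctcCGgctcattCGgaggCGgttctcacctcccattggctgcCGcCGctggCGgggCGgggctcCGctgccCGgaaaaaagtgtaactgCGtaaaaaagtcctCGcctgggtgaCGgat

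IRX1, chr5:3595582-3595831, plus strand: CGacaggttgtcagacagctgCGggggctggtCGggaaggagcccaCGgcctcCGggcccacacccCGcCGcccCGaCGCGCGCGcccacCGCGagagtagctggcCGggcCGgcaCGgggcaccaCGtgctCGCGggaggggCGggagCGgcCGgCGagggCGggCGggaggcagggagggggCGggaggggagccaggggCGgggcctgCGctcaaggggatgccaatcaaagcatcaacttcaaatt

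PAX3, chr2:222298999-222299248, minus strand: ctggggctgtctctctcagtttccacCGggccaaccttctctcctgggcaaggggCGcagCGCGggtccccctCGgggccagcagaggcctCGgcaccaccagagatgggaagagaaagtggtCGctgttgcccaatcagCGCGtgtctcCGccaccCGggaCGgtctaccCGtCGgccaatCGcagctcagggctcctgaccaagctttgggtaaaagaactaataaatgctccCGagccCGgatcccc

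**Figure D5:**
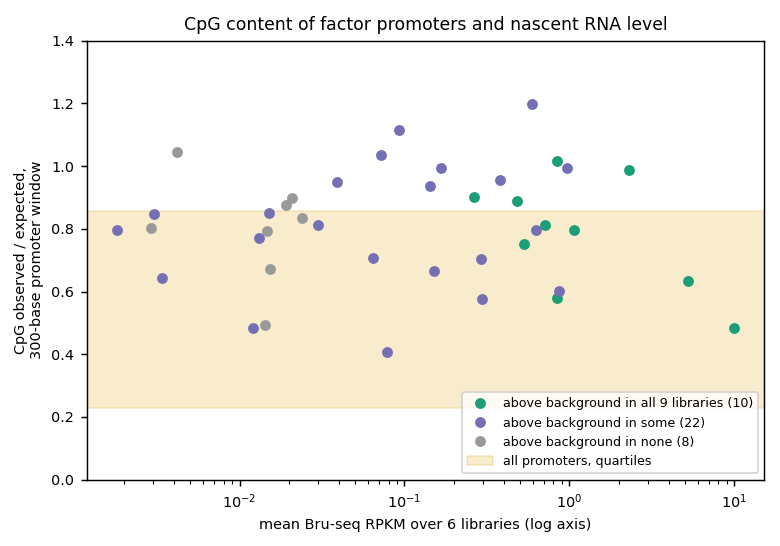
CpG observed-to-expected ratio of the 300-base promoter window against mean Bru-seq RPKM (log axis) for the 40 matched factors, coloured by how many libraries were above background. The shaded band spans the quartiles of 35116 promoters, and factors of all 3 classes spread over the same range of ratios.

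Genes of the Polycomb complexes that act on such promoters, and of the H3K27 demethylase and COMPASS-like complexes, were transcribed in these lines. Of 45 genes of PRC2, PRC1 and the H3K27 demethylase and COMPASS-like complexes, all 45 were tested with both assays and 0 passed in either clone (edgeR), with 3 in KO C22 and 0 in KO C28 at unadjusted p under 0.05 (6.67% and 0%, beside 5.86% and 10.5% of all genes). The median was 0.04 in KO C22 (25 positive) and -0.17 in KO C28 (19 positive). By group, 8 of 13 PRC2, 7 of 19 PRC1 and 10 of 13 demethylase and COMPASS-like genes were positive in KO C22. In KO C28 these were 5, 9 and 5. EZH2, the methyltransferase of PRC2, had 0.69 (SE 0.57) and -0.18 (SE 0.57). KDM6B, the paralogue of KDM6A, had -1.23 (SE 0.77) and -1.15 (SE 0.79).

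Other genes of the same families were examined too. Of 81 relatives with a row, 42 were tested and 0 passed (edgeR), with 1 in KO C22 and 3 in KO C28 at unadjusted p under 0.05 (2.38% and 7.14%, beside 5.86% and 10.5% of all genes). Their median was 0.16 in KO C22, with 23 positive, and 0.51 in KO C28, with 22 positive. Their KO C28 median was -0.28 without Bru-seq KO C28 replicate 2, with 22 of 49 positive, and their KO C22 median -0.26 without Bru-seq KO C22 replicate 1, with 22 of 49 positive. The count filter was applied anew in these fits and kept 49 relatives, so the medians are not over the same genes as the 42. SOX21, a repressor of the SOX family, stood at 1.43, 0.619 and 2.83 RPKM in WT, 1.20, 0.400 and 1.52 in KO C22, then 5.10, 3.19 and 5.96 in KO C28, above all WT and KO C22 libraries. Its value in KO C28 was 1.73 (SE 0.60, edgeR adjusted p = 0.457).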

How the data were processed

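Nascent RNA libraries (Bru-seq, BruUV-seq) of PANC-1 WT, KO C22 and KO C28 were analysed from the authors' tables. Per the submitters' processing notes, the genome build was hg38 (GRCh38) and the tools were STAR 2.5.3a, Bowtie2 2.3.3, CASAVA 1.8.2 and bedtools 2.16.2. The annotation release, and whether counting kept strands apart, are not given in the sources used here. From the values, the deposited tables hold an expected count per gene (fractional, rounded here for tests) and an RPKM made by the authors.

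edgeR 4.0.16 (R 4.3.3) was run with filterByExpr, TMM, quasi-likelihood tests and Benjamini-Hochberg adjustment at 0.05. It was fitted to 6 Bru-seq libraries (22827 genes) and to 9 libraries with an assay term (20819 genes). The common coefficient of variation was 79.3% in the Bru-seq fit and 63.4% in the other. With such a spread a large change can miss the threshold. The test was also run on simulated data, whose outcome is not given here. limma 3.58.1, DESeq2 1.42.0, other normalizations and filters, background subtraction, a length offset and omission of each library were alternatives. Omission of both libraries of high background was chosen after seeing the data. Standard errors were derived from the F statistic. CPM values use TMM factors over 9 libraries, and RPKM compares genes. Intervals are 95% exact binomial and, like the floor of 3 counts, cover counting error alone.

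The members and lists were chosen with earlier results of these data known. Factors given in full were the 6 largest positive and 6 largest negative values per clone among those with a mean of 100 counts in the higher line and groups not overlapping in both assays, the 8 highest by RPKM, and those whose promoters are shown. Transcripts starting within 5 kb on the other strand, or overlapping, and genes within 1 Mb were set beside them. IRX3, IRX5, PAX2, PAX6, PAX8, PAX9, OTX1, SOX2, FOXL2, DLX1, SIX3, LINC01833 and SOX21 were added after their values were seen.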

Additional observations from a re-analysis of the deposited data

Results flagged for a closer look

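TBX2 differed between the clones: its nascent RNA was below WT in every KO C22 library and above WT in every KO C28 library, in Bru-seq and in BruUV-seq. The direct comparison of KO C28 with KO C22 gave a log2 fold change of 2.78 (SE 0.55, edgeR adjusted p = 0.212 over 20819 genes). It did not pass after adjustment, and was 2.39 without both libraries of high background (edgeR adjusted p = 0.159). TBX2 is 1 of 40 factors for which this difference was computed, and it was picked out by its values.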

How the results depend on the processing

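The log2 fold changes of 21 factor and clone pairs kept their direction under all settings that could be computed, 371 values in all, of which 363 kept their side of the threshold and 8 passed where the reported fit did not. The 8 were FOXC2, IRX3, SIM2, TBX2 and WT1 under DESeq2 or with no filter on low counts. No setting turned a direction among these 21 pairs. Each pair had been picked with its clone already on the same side of WT in both assays, so kept directions are no support. Outside these pairs some directions turned. PAX8 in KO C22 went from 2.09 to -0.24 without Bru-seq KO C22 replicate 1. SOX2 in KO C28 went from 1.28 to -1.31 without Bru-seq KO C28 replicate 2. In the count of factors called, the reported value was 0 in each comparison. With no filter it was 1 in KO C28 Bru-seq, 1 in KO C22 and 2 in KO C28 with both assays, and 2 between the clones. With DESeq2 it was 1 in KO C28 Bru-seq, 2 in KO C22 and 3 in KO C28 with both assays, and 2 between the clones. Leaving out 1 library gave 0 to 1 in KO C28 Bru-seq, where WT1 passed without Bru-seq KO C22 replicate 1 (of 0.592% of genes) or replicate 2 (of 0.701%), and 0 in the other comparisons. The cause was not tested. Without both libraries of high background, chosen after seeing the data, it stayed at 0. At the 99th percentile of olfactory receptor genes 8 factors were above background in all libraries, against 14.

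Over all genes with both assays, the 37 called in KO C22 became 272 with no filter, 348 with DESeq2, 6 after background subtraction and 3 to 142 when 1 library was left out. The 26 called in KO C28 became 1100, 711, 9 and 1 to 67. The single gene called in Bru-seq became 43 and 190 with no filter and 92 and 199 with DESeq2, in KO C22 and KO C28. Leaving out 1 library gave 0 to 22 and 0 to 179 there, with 148 in KO C28 without Bru-seq KO C22 replicate 1 and 179 without replicate 2. Between the clones the 0 genes called became 230, 226 and 0 to 18 with no filter, with DESeq2 and without 1 library. Deviations of equally numbered libraries correlated at 0.43 for WT with KO C22, at -0.0014 for WT with KO C28 and at -0.48 between the clones. Both values with KO C28 include Bru-seq KO C28 replicate 2, so they cannot show whether equal numbers pair the samples. With the replicate number as a block, 0 factors were called in each comparison, and 46 and 49 genes with both assays. Depth limits the set: 16 factors did not reach the count filter, and in Bru-seq KO C28 replicate 2 values under 0.436 RPKM were below the background mark. PBX3 and MEIS2, both long genes, were below that mark there but above the reads predicted for their length.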
